A study of Mus musculus with 4 samples.

Results

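The Id genes and the BMP signalling genes examined here were 9 genes taken by name: the targets Id1, Id2, Id3 and Id4, the ligand gene Bmp4, the receptor gene Bmpr1a, and the SMAD genes Smad1, Smad5 and Smad6. All 9 were found among the 46078 gene rows of the count tables by matching symbols to Ensembl gene identifiers. They were read in single mouse embryonic stem (ES) cells of the E14 wild-type line, sequenced by Smart-seq2, which makes full-length cDNA from 1 cell in a well. All cells had been grown in 2i, the medium of naive ES cells, before a sort on forward and side scatter. The paper gives its naive medium as N2B27 with a MEK inhibitor, a GSK-3 inhibitor and LIF, and its exit medium as N2B27 alone. The small gate was set to collect cells leaving mitosis or in G1, and the ungated sort served as its control. Both were then replated on laminin for 6 h, either in 2i or in N2B27, the medium in which naive pluripotency is lost.

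Each of the 4 groups was 1 sample of 24 cells, named here by its medium and gate. After the filter on cell quality 12 cells were kept of the 2i small group, 22 of 2i ungated, 20 of N2B27 small and 21 of N2B27 ungated. Cells of 1 sample are not replicates, so no test between groups was possible and no p-value is given. Each medium was also 1 plate sequenced in its own lane, so that medium, plate and lane cannot be told apart, and both plates used the same 48 index pairs. The gates were collected on different index rows of the plate.

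Kept cells had 1364155 to 4844170 counts on genes and 4612 to 15712 genes detected. Their identity as ES cells was checked on 8 markers (Pou5f1, Sox2, Nanog, Zfp42, Esrrb, Utf1, Tdgf1 and Dppa5a), and all 8 had a mean of at least 20 normalized counts in each group. No primitive endoderm, mesoderm or fibroblast marker reached that mean in any group, and 4 or 5 of the 5 fibroblast markers were at 0. Of the neural markers, Pax6 reached it in all groups and Tubb3 in 3 groups, and of the trophoblast markers Cdx2 did so in 2i small, Krt7 in N2B27 small and Gata3 in N2B27 ungated. Among 2i small cells, 1 cell had 40.9% of its counts on spike-in RNA and 4612 genes, and another had 15712 genes and a count for all 9 members. The member ratios and pathway counts that use 2i small are therefore also given without them. Whether the cell with 15712 genes was more than 1 cell was not tested.

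In BMP signalling, a ligand such as BMP4 brings together type I and type II receptor kinases, of which BMPR1A is a type I chain. The receptors phosphorylate SMAD1 and SMAD5, which enter the nucleus with the common partner SMAD4 and switch on target genes, among them the Id genes. SMAD6 is an inhibitory SMAD that is itself induced by the pathway and closes a feedback loop. Id proteins are helix-loop-helix proteins without a DNA-binding region that hold E proteins and other bHLH factors away from DNA. In ES cells, BMP4 and Id proteins are known to help LIF to maintain self-renewal by blocking differentiation.

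Promoter windows of 250 bases before to 50 bases after the transcription start, from RefSeq (GRCm38.p6), were matched for 8 of the 9 members, and Id1 had no entry. The windows were searched on both strands for 4 short motifs that read the same on both strands. GGCGCC, the core of the BMP response element, lay in the windows of Id2, Id4, Bmpr1a and Smad5 and in 11.9% of all 32851 windows of the same length. GTCTAGAC, the SMAD palindrome, lay in the Smad6 window and in 0.213% of all windows. The E-box CAGCTG lay in the Id2 window (16.3% of all) and the E-box CACGTG in the Bmp4 window (7.15% of all). No match overlapped another, and the windows of Id3 and Smad1 held none of these letters. Smad5 had several windows. For Id2, Id3, Smad1, Bmpr1a and some Smad5 windows, the part before the start overlapped an annotated exon of the gene. Those windows are not wholly upstream of the annotated gene. The sequences of the feedback gene and of the ligand gene are shown because they hold the rarer motifs, with the match in capitals, from 250 bases before to 10 bases after the start on the minus strand of GRCm38 (Smad6, chr9:64022050-64022309, and Bmp4, chr14:46390660-46390919).
Smad6: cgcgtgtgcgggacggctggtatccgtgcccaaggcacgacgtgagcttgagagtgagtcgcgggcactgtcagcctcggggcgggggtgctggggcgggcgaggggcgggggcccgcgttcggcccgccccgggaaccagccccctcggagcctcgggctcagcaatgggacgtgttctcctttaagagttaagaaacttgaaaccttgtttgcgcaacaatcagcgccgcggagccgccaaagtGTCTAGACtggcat
Bmp4: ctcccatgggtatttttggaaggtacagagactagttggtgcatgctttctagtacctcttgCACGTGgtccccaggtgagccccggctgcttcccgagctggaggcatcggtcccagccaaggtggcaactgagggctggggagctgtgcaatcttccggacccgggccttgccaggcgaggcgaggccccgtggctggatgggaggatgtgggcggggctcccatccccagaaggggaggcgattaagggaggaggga
A match is only a run of letters, and binding was not measured in these cells.

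Within a group, counts fell into separate ranges: cells with no count or 1 to 9 counts stood beside cells with far more. Cells with at least 10 counts were at most 50% of a group except for Id3 in both ungated groups and Smad1 in 2i ungated. The share of cells with at least 10 counts is therefore given beside each mean, a threshold chosen after the values were seen. Every group held cells at 0 for every member, so the ranges over cells overlapped in every comparison. Shares are given with exact Clopper-Pearson 95% intervals, which cover counting error over cells only. A normalized count is a count divided by the size factor of its cell.

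**Figure D1:**
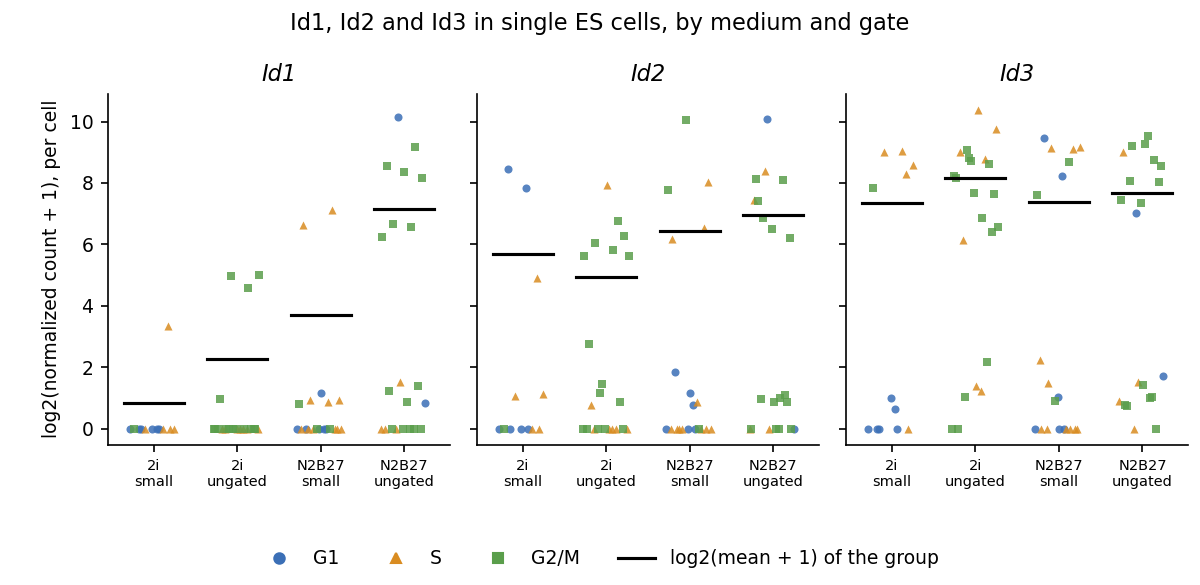
Values of Id1, Id2 and Id3 in each kept cell (12, 22, 20 and 21 cells), as log2(normalized count + 1) on the vertical axis, by group on the horizontal axis. Symbols give the called cell-cycle phase and the black line log2(mean + 1) of the group. The 5 highest Id1 values, 287 to 1133 normalized counts, are N2B27 ungated cells, whereas high Id3 cells occur in all groups.

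Id1 (ENSMUSG00000042745, GRCm38 chromosome 2, 152736251 to 152737410, plus strand) was the member with the largest difference between the media in ungated cells. In 2i small cells it had a count in 1 of 12 cells, the cell with 15712 genes, and the mean was 0.768 ± 2.66 normalized counts (SD over cells). The other 11 cells had no count. In 2i ungated cells 3 of 22 cells had at least 10 counts, at 30.8, 30.2 and 23.0 normalized counts, and the mean was 3.86 ± 9.91. Id1 was therefore rare in both groups in 2i.

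In N2B27 small cells 2 of 20 cells had at least 10 counts of Id1, at 138 and 99.1 normalized counts, and the mean was 12.1 ± 37.0. In N2B27 ungated cells 8 of 21 cells did, at 1133, 573, 377, 324, 287, 101, 93.4 and 75.2, and the mean was 141 ± 278. Ungated cells in N2B27 thus held both more cells with Id1 and higher values per cell, while 8 of the 21 cells had no count. The share with at least 10 counts was 38.1% (18.1 to 61.6) in N2B27 ungated, 10% (1.24 to 31.7) in N2B27 small and 13.6% (2.91 to 34.9) in 2i ungated, and these intervals overlapped. The summed counts were 3173 (exact Poisson interval 3063 to 3285) in N2B27 ungated and 248 (218 to 281) in N2B27 small. These intervals leave out the spread between cells, and the highest cell held 35.4% and 66.5% of the counts.

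Id2 (ENSMUSG00000020644, chromosome 12, 25093799 to 25097140, minus strand) was detected more widely than Id1 in every group. Its mean was 50.9 ± 115 normalized counts in 2i small, 29.9 ± 57.8 in 2i ungated, 85.6 ± 242 in N2B27 small and 124 ± 247 in N2B27 ungated. At least 10 counts were found in 3 of 12, 7 of 22, 5 of 20 and 9 of 21 cells, and the order of the groups by share was again led by N2B27 ungated. Single cells weighed on the means of the small groups, since the highest cell held 61.0% of the Id2 counts in 2i small and 61.4% in N2B27 small, against 39.9% in 2i ungated and 37.5% in N2B27 ungated. The highest cells reached 1063 normalized counts in N2B27 small and 1091 in N2B27 ungated. The second of these was the same cell that led Id1.

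Id3 (ENSMUSG00000007872, chromosome 4, 136143497 to 136145755, plus strand) was the most widely detected of the Id genes and, unlike Id1, was already present in 2i. Its mean was 163 ± 216 normalized counts in 2i small, 287 ± 331 in 2i ungated, 166 ± 252 in N2B27 small and 204 ± 246 in N2B27 ungated. The means of the groups lay within 1 SD over cells of each other. The share of cells with at least 10 counts was 72.7% (49.8 to 89.3) in 2i ungated, 52.4% (29.8 to 74.3) in N2B27 ungated, 41.7% (15.2 to 72.3) in 2i small and 35.0% (15.4 to 59.2) in N2B27 small. Both ungated groups were above both small groups in this order, with overlapping intervals. The median cell differed more than the mean: it had 201 and 130 normalized counts in 2i ungated and N2B27 ungated, and 0.765 and 0.939 in 2i small and N2B27 small.

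Id4 (ENSMUSG00000021379, chromosome 13, 48261228 to 48266026, plus strand) was close to undetected. It had 15 counts in 2 cells of 2i small and 18 counts in 1 cell of 2i ungated, the second of which was also a cell with Id1. There was no count in 20 N2B27 small and 21 N2B27 ungated cells, and the exact intervals of these shares, 0 to 16.8% and 0 to 16.1%, limit cells with a count and not cells that express the gene. No difference was detectable for Id4 at this depth.

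Per kilobase of exon, the scale on which different genes can be set side by side, Id3 led in 2i ungated cells with a mean of 160 normalized counts, against 12.3 for Id2, 3.33 for Id1 and 0.245 for Id4. In N2B27 ungated cells Id1 and Id3 were at 122 and 114 per kilobase and Id2 at 50.9. By mean, Id1 thus stood level with Id3 in N2B27 ungated cells and well under it in 2i ungated cells. The median N2B27 ungated cell, not scaled to length, had 1.33 normalized counts of Id1 and 130 of Id3. In N2B27 small cells the means per kilobase were 10.4 for Id1, 35.1 for Id2 and 92.5 for Id3, and the order was that of 2i.

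The number of Id genes in 1 cell was counted over Id1, Id2 and Id3 at 10 or more counts. In N2B27 ungated 4 of 21 cells had none, 8 had 1, 7 had 2 and 2 had all 3. In N2B27 small 9 of 20 cells had none, 8 had 1 and 3 had 2. In 2i ungated 3 of 22 had none, 13 had 1, 5 had 2 and 1 had all 3, while in 2i small 5 of 12 had none and 6 had 1. Most cells with 1 Id gene in 2i ungated were cells with Id3, which 16 of those 22 cells held.

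**Figure D2:**
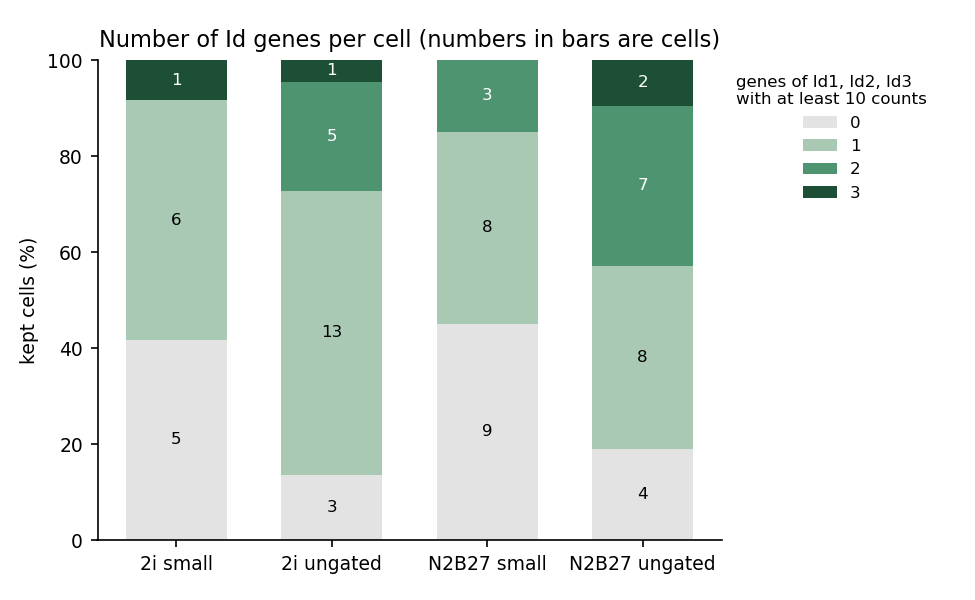
Share of kept cells (percent, vertical axis) in each group that held 0, 1, 2 or 3 of Id1, Id2 and Id3 at 10 or more counts, with the number of cells written in each segment. Cells without any of these genes were 9 of 20 in N2B27 small and 4 of 21 in N2B27 ungated, and cells with 2 or 3 of them were commonest in N2B27 ungated.

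The Id genes did not vary together from cell to cell. Over all 75 kept cells 14 had Id1, 39 had Id3 and 8 had both. With group means removed, the Pearson correlation of log2 values over the 75 cells was -0.03 for Id1 with Id3, 0.11 for Id1 with Id2 and -0.12 for Id2 with Id3, and these cells share plates and samples. Among the 8 N2B27 ungated cells with Id1, Id3 was 595 normalized counts in 1 cell and 0.694 in another. Over the N2B27 ungated cells 5 held both Id1 and Id3, 3 held Id1 without Id3 and 6 held Id3 without Id1.

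Bmp4 (ENSMUSG00000021835, chromosome 14, 46383520 to 46390669, minus strand), the ligand gene, was carried by few cells in each group, and these were highest in N2B27 ungated. Its mean was 41.2 ± 86.9 normalized counts in 2i small, 71.2 ± 157 in 2i ungated, 39.5 ± 121 in N2B27 small and 217 ± 532 in N2B27 ungated. At least 10 counts were found in 4 of 12, 6 of 22, 2 of 20 and 6 of 21 cells. The number of cells with Bmp4 was thus the same in both ungated groups, and the difference lay in the height of the highest cells. These reached 1943, 1518 and 719 normalized counts in N2B27 ungated against 557, 437 and 319 in 2i ungated. The 2 N2B27 small cells had 412 and 374.

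Cells with Bmp4 and cells with Id1 overlapped in part. In N2B27 ungated, 4 of the 8 cells with Id1 also had at least 10 counts of Bmp4, and 4 of the 6 cells with Bmp4 also had Id1. The cell with the highest Bmp4 (1943 normalized counts) had no Id1 count, and the cell with the highest Id1 (1133) had no Bmp4 count. Over all kept cells 7 of 18 cells with Bmp4 had Id1, and the correlation with group means removed was 0.28 over 75 cells. That was the highest Pearson value among the pairs compared, which left out Id4. By rank (Spearman) it was 0.20, and Id1 with Smad6 was at 0.21, on counts that are 0 in most cells.

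The markers of other cell types were read in the 8 N2B27 ungated cells with Id1. Their summed ES cell markers ranged from 17350 to 32990 normalized counts, within the range of that group (10770 to 32990). In 1 of them, which also had 1518 normalized counts of Bmp4, the primitive endoderm markers summed to 534, and in the other 7 to 1.12 or below. The sum over trophoblast markers ranged from 0 to 347 in these cells and reached 351 in the group. The sum over neural markers was 367, 235 and 120 in 3 of these cells and 53.6 or below in the other 5, in a group with a median of 35.3 and a highest value of 586. The part of such cells in the Id1 result was not tested.

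Bmpr1a (ENSMUSG00000021796, chromosome 14, 34410734 to 34503341, minus strand), the type I receptor gene, was highest in 2i small cells, where it rested on few cells. Its mean was 117 ± 284 normalized counts in 2i small, 12.6 ± 21 in 2i ungated, 7.40 ± 25.7 in N2B27 small and 14.9 ± 32.2 in N2B27 ungated. The 6 of 12 cells with at least 10 counts in 2i small were at 996, 196, 136, 37.9, 25.3 and 12.1 normalized counts. In the other groups the highest cell was at 61.3, 115 and 122, in the same order. Without the cell of high spike-in share the 2i small mean was 128. The 4 highest 2i small cells were all called G1, and 2i ungated held no cell called G1.

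**Figure D3:**
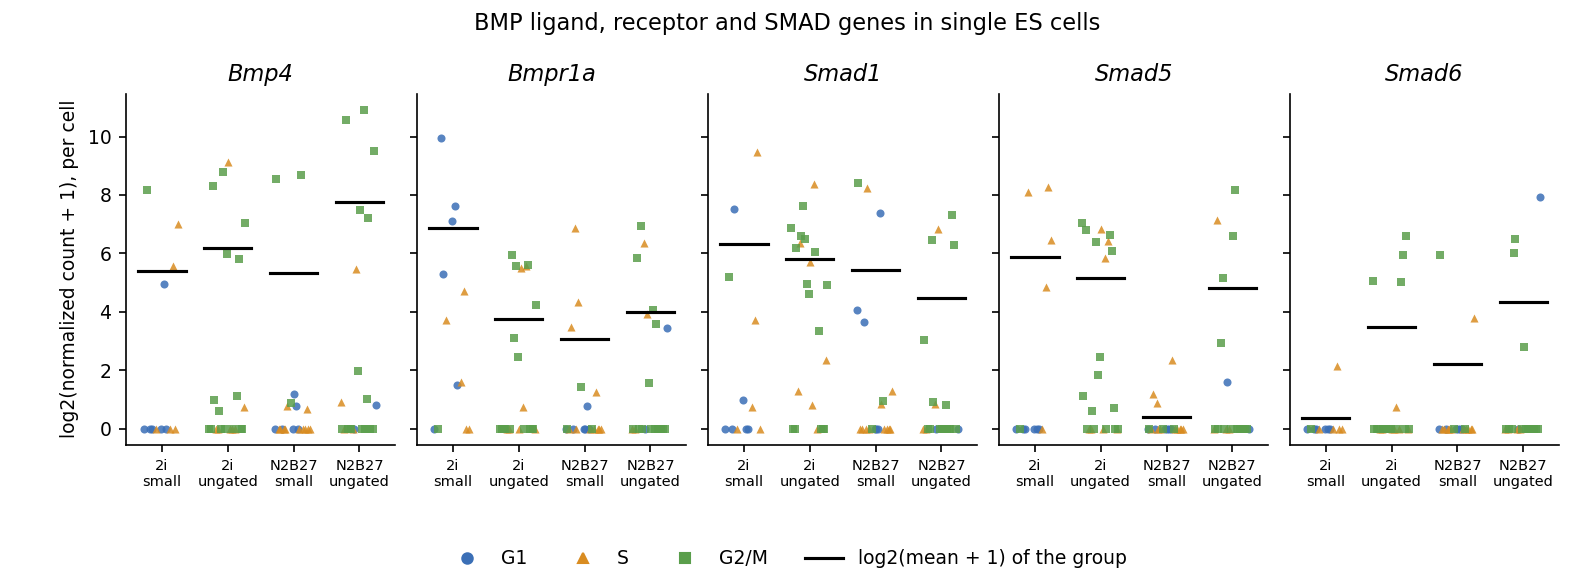
Values of Bmp4, Bmpr1a, Smad1, Smad5 and Smad6 in each kept cell, as log2(normalized count + 1) on the vertical axis, by group on the horizontal axis, with symbols for the called phase and the black line at log2(mean + 1). The highest Bmp4 cells are N2B27 ungated, the 4 highest Bmpr1a values of 2i small are G1 cells, and no N2B27 small cell is above 4.07 normalized counts of Smad5.

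Smad1 (ENSMUSG00000031681, chromosome 8, 79338395 to 79399518, minus strand), a SMAD that the BMP receptors phosphorylate, was carried by the most cells in 2i ungated. Its mean was 78.5 ± 206 normalized counts in 2i small, 54.5 ± 80.7 in 2i ungated, 41.8 ± 102 in N2B27 small and 21.1 ± 45.7 in N2B27 ungated. At least 10 counts were found in 4 of 12, 12 of 22, 4 of 20 and 5 of 21 cells. By share of cells 2i ungated led with 54.5% (32.2 to 75.6), and by mean 2i small did, where 1 cell held 79.1% of the counts.

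Smad5 (ENSMUSG00000021540, chromosome 13, 56703010 to 56742377, plus strand), the second such SMAD, was all but missing from N2B27 small cells. There it had 7 counts in 3 of 20 cells, no cell had 10 counts, and the highest cell had 4.07 normalized counts. At least 10 counts were found in 4 of 12 cells of 2i small, 8 of 22 of 2i ungated and 5 of 21 of N2B27 ungated, with means of 57.7 ± 111, 34.3 ± 47.7 and 26.9 ± 69.6 normalized counts. The exact 95% interval of the N2B27 small share, 0 to 16.8%, overlapped those of 2i small (9.93 to 65.1%) and N2B27 ungated (8.22 to 47.2%) and lay just under that of 2i ungated (17.2 to 59.3%).

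Smad6 (ENSMUSG00000036867, chromosome 9, 63953076 to 64022059, minus strand), the inhibitory SMAD gene with the palindrome in its promoter window, was low in all groups. Its mean was 0.288 ± 0.998 normalized counts in 2i small, 10.05 ± 24.7 in 2i ungated, 3.65 ± 13.6 in N2B27 small and 19.0 ± 55.9 in N2B27 ungated. At least 10 counts were found in 0, 4, 2 and 3 cells. In N2B27 ungated 64.5% of its counts came from 1 cell, which was at 241 normalized counts. No mean reached the minimum of 20 that was set for a 2-fold call.

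**Figure D4:**
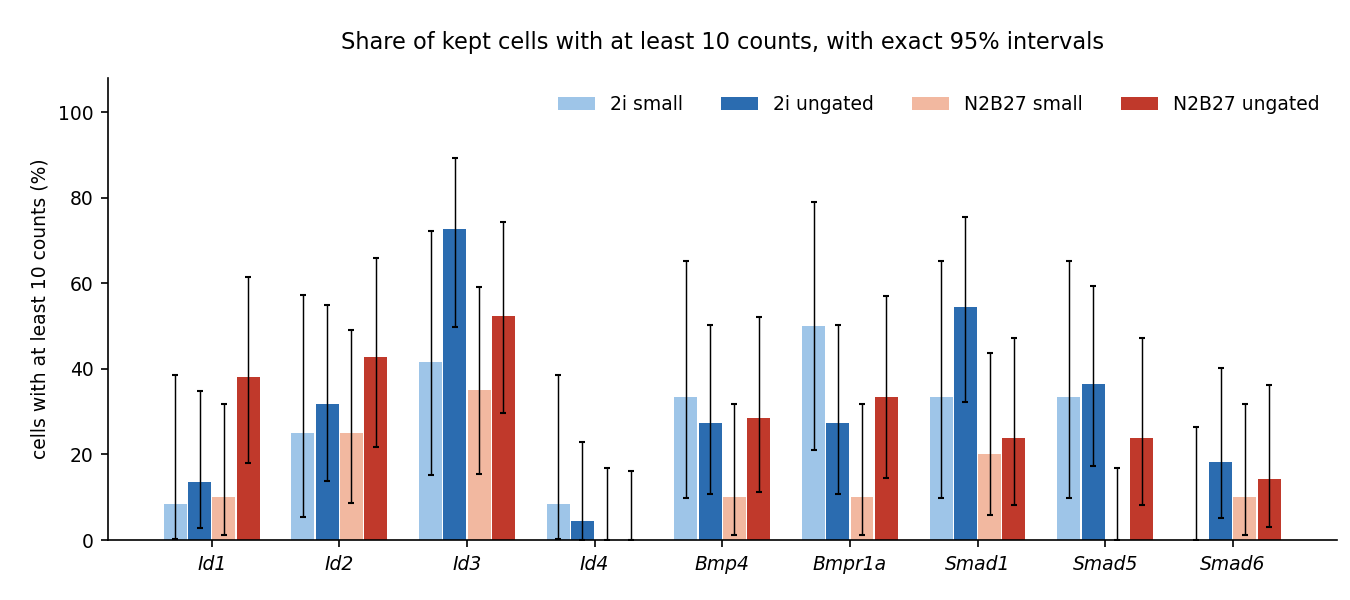
Share of kept cells with at least 10 counts (percent, vertical axis) for each member in the 4 groups, with exact 95% intervals as bars. N2B27 ungated leads for Id1 (38.1%) and Id2 (42.9%), 2i ungated for Id3 (72.7%) and Smad1 (54.5%), 2i small for Bmpr1a (50%), and most intervals overlap.

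Group means were compared as log2 ratios with a pseudocount of 1 on both means. A gene was counted as past 2-fold when its log2 ratio was at least 1 in size and its higher mean was at least 20 normalized counts. Many genes passed this rule in every comparison, so the share of all genes that passed is given beside the counts.

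Between the gates in N2B27, 3 members were past 2-fold lower in small cells and none was higher, where 19.1% of the 9623 genes tested were lower and 15.2% were higher. Id1 was lower by 3.44 on the log2 scale, or 10.9-fold with the pseudocount (means of 12.1 against 141 normalized counts). Bmp4 had a log2 ratio of -2.43 (39.5 against 217) and Smad5 of -4.42 (0.308 against 26.9). Id2, Id3 and Smad1 reached the minimum mean with log2 ratios of -0.53, -0.30 and 0.95, inside 2-fold. Smad1 passed 2-fold higher in small cells with scaling to total counts (1.00), pooled counts (1.05), scran size factors (1.17) and poscounts (1.76). Without the top cell of each group Id2 was past 2-fold lower (-1.13), and Smad5 no longer reached the minimum mean (-3.75). The median over the 6 members that reached it was -1.48, and over all genes tested it was -0.11.

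Between the gates in 2i, 1 member was past 2-fold higher in small cells and none was lower, where 18.1% of the 9417 genes tested were higher and 29.1% were lower. That member was Bmpr1a with a log2 ratio of 3.12. Without the cell of high spike-in share it was 3.24, and without the cell of most genes 3.22. Leaving out the top Bmpr1a cell on both sides gave 1.76. Id2, Id3, Bmp4, Smad1 and Smad5 had log2 ratios of 0.75, -0.81, -0.77, 0.52 and 0.73, against a median of -0.37 over all genes tested. Without the cell of high spike-in share these 5 ratios were 0.87, -0.68, -0.65, 0.64 and 0.86, and without the cell of most genes 0.80, -0.93, -0.79, 0.62 and 0.80. All stayed inside 2-fold. Without the top cell of each group Bmp4 was past 2-fold lower (-1.32).

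Between the media in ungated cells, 3 members were past 2-fold higher in N2B27 and 1 was lower, where 10.2% of the 9453 genes tested were higher and 11.9% were lower. Id1 was higher by 4.87 on the log2 scale, or 29.3-fold with the pseudocount. Id2 was higher by 2.02 and Bmp4 by 1.59, and Smad1 had a log2 ratio of -1.33. Id3 and Smad5 were inside 2-fold, at -0.49 and -0.34. Smad5 turned past 2-fold higher with no filter on cells (1.97) and with fixed limits on cells (1.83), and past 2-fold lower without the top cell of each group (-1.04). Of the targets, Id1 and Id2 thus went with N2B27 in ungated cells and Id3 did not, and the median over all genes tested was -0.02.

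Between the media in small cells, 2 members were past 2-fold lower in N2B27 and none was higher, where 20.6% of the 9425 genes tested were lower and 25.6% were higher. Bmpr1a had a log2 ratio of -3.82 (7.40 against 117 normalized counts) and Smad5 of -5.49 (0.308 against 57.7). Without the 2i small cell of high spike-in share these were -3.94 and -5.61, and without the cell of most genes -3.91 and -5.55. Smad5 no longer reached the minimum mean with no filter on cells (-3.46) or with fixed limits on cells (-4.11). Id2, Id3, Bmp4 and Smad1 were inside 2-fold at 0.74, 0.02, -0.06 and -0.89. Without the cell of high spike-in share they were 0.62, -0.11, -0.18 and -1.02, which put Smad1 past 2-fold lower, and without the cell of most genes 0.69, 0.14, -0.04 and -0.997, with Smad1 just inside. Id1 had a log2 ratio of 2.89, with both means under 20. The 4 comparisons share their groups, so each ratio is given on its own.

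**Figure D5:**
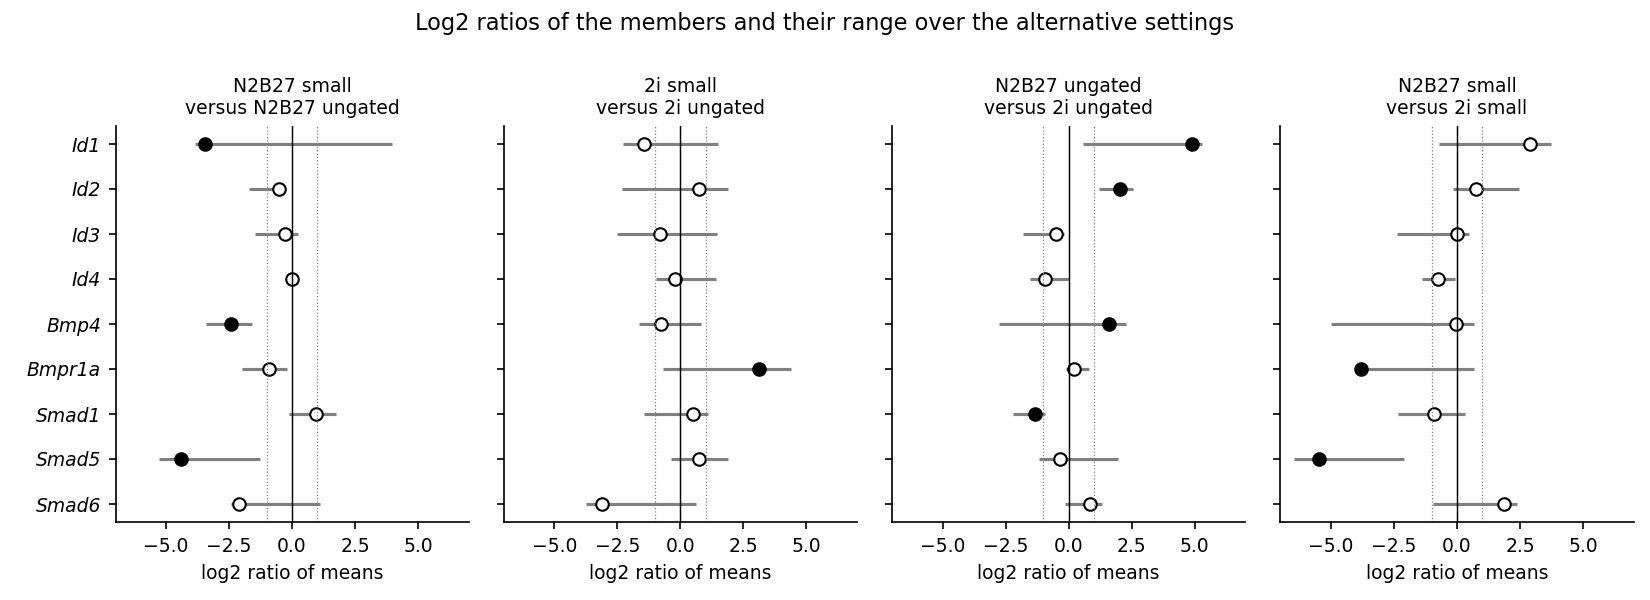
Log2 ratio of group means (horizontal axis) of each member in the 4 comparisons, as filled points where past 2-fold with a mean of at least 20 and open points elsewhere; grey lines span the lowest to the highest value over the alternative settings, and dotted lines mark 2-fold. The lines of Id1 between the gates in N2B27, of Bmp4 between the media in ungated cells and of Bmpr1a in both comparisons that use 2i small cross 0 because of the setting with S-phase cells only.

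Which way the scale was set mattered for the 2i small comparisons. Scaling to the spike-in RNA in place of the genes moved the median log2 ratio of all genes from -0.37 to 0.82 between the gates in 2i, from 0.11 to -1.61 between the media in small cells, and from -0.11 to -0.86 between the gates in N2B27. The share of higher genes among all genes past 2-fold went from 38.4% to 90.0%, from 55.4% to 2.91% and from 44.3% to 8.88% in the same order, and size factors that tolerate zeros (poscounts) gave 67.2%, 62.2% and 67.0%. The 2i small cell of most genes had 0.0673% of its counts on spike-in RNA, against a group median of 3.47%. Spike-in scaling was not run without that cell, so its part in the 2i small shifts was not tested. Under spike-in scaling no member that was past 2-fold changed direction, and Smad1 between the media in ungated cells came inside 2-fold at -0.95. Relative to the shifted median of all genes, spike-in scaling put Id1, Bmp4 and Smad5 at -2.59, -0.91 and -3.83 between the gates in N2B27, Bmpr1a at 1.38 between the gates in 2i, and Bmpr1a and Smad5 at -2.26 and -4.50 between the media in small cells. Members inside 2-fold did change direction, among them Id3 between the gates in 2i (1.45), Smad1 between the gates in N2B27 (-0.12) and, under the minimum mean, Id1 between the media in small cells (-0.71). Between the media in small cells Id3 went from 0.02 to -2.37 and Bmp4 from -0.06 to -1.33. Both were then past 2-fold lower, where the median of all genes was -1.61. The median between the media in ungated cells moved only from -0.02 to 0.06 under spike-ins, where Id1 was 4.20 and Id2 was 1.81, but poscounts took the share of higher genes from 46.3% to 78.5%.

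The cell-cycle phase called from expression differed between the gates. G1, S and G2/M were called in 6, 5 and 1 cells of 2i small, 0, 7 and 15 of 2i ungated, 6, 11 and 3 of N2B27 small and 2, 4 and 15 of N2B27 ungated. Median genes detected moved with the gate too, at 7603 and 7462 in 2i small and N2B27 small against 9516 and 8200 in 2i ungated and N2B27 ungated, and the median spike-in share was 3.47% and 2.45% against 1.28% and 1.14%. The part of these differences in the results was not tested beyond the values for single phases that follow.

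Id1 was not found in the same phase in both gates in N2B27. Of the 8 N2B27 ungated cells with Id1, 7 were called G2/M and 1 was called G1, and none of the 4 S-phase cells had 10 counts. Both N2B27 small cells with Id1 were called S, among 11 S-phase cells. In S-phase cells alone the Id1 mean was therefore 21.8 normalized counts in N2B27 small and 0.474 in N2B27 ungated, and the log2 ratio was 3.95, the opposite of that over all cells. The same restriction, to 4 and 7 cells, left Id1 at 0.56 between the media in ungated cells. In G2/M cells the Id1 mean was 122 normalized counts in 15 N2B27 ungated cells and 5.66 in 15 2i ungated cells. At least 10 counts were found in 7 and 3 of them. In the 3 N2B27 small G2/M cells the mean was 0.242, and none had 10 counts. The part of phase in the Id1 differences was not tested.

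Both N2B27 small cells with Bmp4 were called G2/M, a phase of 3 of the 20 cells. Of the 6 N2B27 ungated cells with Bmp4, 5 were called G2/M, where 15 of all 21 cells were: 5 of 15 G2/M, 1 of 4 S and 0 of 2 G1 cells held it. The mean in G2/M cells was 262 normalized counts in 3 N2B27 small cells and 301 in 15 N2B27 ungated cells. These means were close but rested on few cells: 2 of the 3 small and 5 of the 15 ungated cells held Bmp4. A difference between the gates within G2/M was not tested. In 2i ungated G2/M cells the mean was 67.2. In S-phase cells alone the ratio between the media in ungated cells was -2.76, from 10.9 in 4 N2B27 cells and 79.7 in 7 2i cells.

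Id3 in 2i small cells was carried by 4 of 5 S-phase cells and the only G2/M cell, and by none of the 6 G1 cells. In N2B27 small cells it was carried by 2 of 6 G1, 3 of 11 S and 2 of 3 G2/M cells. The pattern of 2i small did not recur in N2B27 small. Smad5 in 2i small was carried by 4 of 5 S-phase cells and none of the others, and in N2B27 small by none of 11 S-phase cells, so the Smad5 difference between the media was as large in S-phase cells (log2 ratio -6.48). Bmpr1a in 2i small was 228 normalized counts in G1 cells and 7.88 in S-phase cells, and within S-phase cells its ratio was -0.67 between the gates in 2i and 0.68 between the media. In N2B27 small G1 cells its mean was 0.119. At least 10 counts were found in 4 of 6 G1 cells of 2i small and in 0 of 6 of N2B27 small. The 2i small G1 mean rested largely on 1 cell at 996 normalized counts.

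The wider pathway was read from 8 lists with 75 genes in all, the members included. No count was found in any kept cell for 20 of them, among them Smad9, and 12 more had a count in 1 to 3 cells. In N2B27, 8 of the 31 genes that reached the minimum mean were past 2-fold higher in small cells and 8 were lower (15.2% and 19.1% of all genes tested), with a median log2 ratio of -0.30. With spike-in scaling 3 were higher and 10 lower, against 4.08% and 41.8% of all genes. By list, 2 of 4 receptors were higher, 4 of 5 SMAD cofactors were higher, and 3 of 4 bHLH partners of Id proteins were lower (Tcf12, Ascl2 and Hes1). Without the top cell of each group Ascl2 and Hes1 no longer reached the minimum mean, and Tcf12 was -2.95. Of the intracellular inhibitors 2 of 6 were higher and 1 was lower, and 1 of 1 ligand, 1 of 3 SMADs, 1 of 2 extracellular inhibitors and 1 of 6 targets were lower.

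The 5 genes outside the members with the largest ratios, among those with a count in 50% or more of the cells on the higher side, were all higher in N2B27 small. They were Sp1, a zinc finger transcription factor (log2 ratio 2.97), Skil, which encodes the SMAD corepressor SnoN (2.21), Acvr2b, a type II receptor shared with activins (2.14), Ep300, a histone acetyltransferase that SMADs recruit (1.70), and Yy1 (1.65). With spike-in scaling these were 1.22, 0.80, 1.10, 0.37 and -0.01, so only Sp1 and Acvr2b stayed past 2-fold. Sp1 had at least 10 counts in 6 of 20 N2B27 small and 3 of 21 N2B27 ungated cells, and Skil in 11 and 7. The type II receptor gene Bmpr2 had a count in 1 of the N2B27 small cells and in none of the N2B27 ungated cells.

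In 2i, 6 of 27 pathway genes were past 2-fold higher in small cells and 9 were lower (18.1% and 29.1% of all genes tested), with a median of -0.59. The counts were 6 and 7 without the cell of high spike-in share, 7 and 9 without the cell of most genes, 6 and 7 without both, and 1 and 12 without the top cell of each group. The shares of all genes were 14.2% and 26.6%, 19.3% and 29.6%, 15.6% and 26.9%, and 4.68% and 45.6% in the same order. With spike-in scaling, run only with the cell of most genes kept, 17 were higher and 1 lower, against 41.3% and 4.60% of all genes. Of the bHLH partners 3 of 4 were higher (Tcf4, Tcf12 and Ascl2), where the list leaned lower in N2B27, and the difference between the media was not tested. Of the others, 1 of 3 ligands was higher and 1 lower, 1 of 3 receptors higher and 1 lower, 1 of 4 cofactors higher and 2 lower, and 1 of 3 SMADs, 2 of 5 intracellular inhibitors, 1 of 1 extracellular inhibitor and 1 of 4 targets were lower. The higher cofactor was Yy1 (5.81), where 1 cell, that of high spike-in share, held 96.0% of the counts, and without it the ratio was -2.28. Without that cell the cofactor Ep300 went from -1.10 to -0.98 and the extracellular inhibitor Fstl1 from -1.05 to -0.92, both inside 2-fold, and the co-receptor gene Rgmb went from 0.95 to 1.07. These were named after their values were seen. The leading genes by the same rule were Ppm1a, a phosphatase that acts on phosphorylated SMADs (-2.96), Tcf12, which encodes the E protein HEB (2.66), Tob1 (-2.58), Sp1 (-2.21) and the co-receptor gene Eng (-2.11). Without the cell of high spike-in share these were -2.85, 2.78, -2.46, -2.30 and -1.99, and without the cell of most genes -3.36, 2.75, -2.70, -2.99 and -2.10. Another cell held 85.1% of the Tcf12 counts in 2i small (2685 normalized counts, the next 88.6), and without the top cell of each group Tcf12 was -0.72, Ascl2 -2.69 and Tcf4 0.87, so no bHLH partner stayed past 2-fold higher. With spike-in scaling Ppm1a, Tob1 and Eng came inside 2-fold (-0.11, -0.35 and -0.65) and Sp1 turned to 1.27. Eng had at least 10 counts in 16 of 22 ungated and 5 of 12 small cells.

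Between the media in ungated cells, 7 of 31 pathway genes were past 2-fold higher in N2B27 and 5 were lower (10.2% and 11.9% of all genes tested), with a median of -0.10. Without the top cell of each group 7 were higher and 9 lower, against 6.79% and 15.2% of all genes. Targets had 2 of 6 higher, which were Id1 and Id2, and 1 of 2 ligands, 1 of 5 bHLH partners, 1 of 5 intracellular inhibitors, 1 of 2 extracellular inhibitors and 1 of 5 cofactors were higher. Of 3 receptors, 3 SMADs, 5 intracellular inhibitors, 2 extracellular inhibitors and 5 cofactors, 1 each was lower. The leading genes outside the members were Sp1 (-2.13), Fstl1, which encodes a secreted follistatin-like protein (-1.93), Twsg1, a secreted BMP-binding protein (1.69), Eng (-1.36) and Skil (-1.07). Fstl1 was detected in all 22 cells of 2i ungated, with 365 ± 251 normalized counts against 95.3 in N2B27 ungated. The E protein gene Tcf3, whose product is a partner of Id proteins, had at least 10 counts in 21 of 22 and 19 of 21 cells with means of 328 and 491.

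In small cells, 13 of 31 pathway genes were past 2-fold higher in N2B27 and 9 were lower (25.6% and 20.6% of all genes tested), with a median of 0.32. The counts were 14 and 9 without the 2i small cell of high spike-in share, 13 and 9 without the cell of most genes and without both, and 7 and 4 without the top cell of each group. The shares of all genes in these 4 settings were 24.1% and 16.8%, 26.1% and 21.6%, 24.6% and 18.1%, and 27.8% and 10.8%. With spike-in scaling, run only with the cell of most genes kept, 2 were higher and 22 lower, against 2.23% and 74.4% of all genes. By list, 2 of 5 receptors, 1 of 3 SMADs, 4 of 6 intracellular inhibitors, 2 of 5 targets, 1 of 4 bHLH partners and 3 of 5 cofactors were higher, and 1 of 2 ligands, 1 receptor, 1 SMAD, 1 intracellular inhibitor, 1 of 1 extracellular inhibitor, 3 bHLH partners and 1 cofactor were lower. The lower cofactor was Yy1 (-3.64), which turned to 4.45 without the cell of high spike-in share. The leading genes were Tcf12 (-4.96), Acvr2b (3.28), Sp1 (3.05), Ep300 (2.62) and Ppm1a (2.08). Without the 2i small cell of high spike-in share these were -5.08, 3.26, 3.14, 2.50 and 1.96, and without the cell of most genes -5.05, 3.26, 3.82, 2.60 and 2.47. Without the top cell of each group Tcf12 (-2.39) and Ppm1a (2.45) no longer reached the minimum mean. With spike-in scaling Sp1 and Ppm1a turned to -2.16 and -1.13, and Ep300 came to 0.93. The targets past 2-fold were Msx2 (2.22) and Hey1 (1.29), named after their values were seen, each with a count in 5 of 20 N2B27 small cells. Id1 had a larger ratio (2.89) with both means under 20, and Id2 and Id3 were inside 2-fold. With spike-in scaling Msx2 and Hey1 came to -0.67 and -0.94. Without the top cell of each group Hey1 (2.59) no longer reached the minimum mean.

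Genes whose values followed Id1 most closely over the 75 cells were, with group means removed, Sike1 (Pearson r = 0.51), 2700099C18Rik (0.50), Nr4a1 (0.45), Gm13597 (0.43) and Tax1bp3 (0.43). The median over the 6640 genes compared was 0.05, and 1% of them were above 0.33. In the 41 N2B27 cells alone the same 5 genes had r of 0.59, 0.61, 0.55, 0.54 and 0.54 and ranked 3, 2, 5, 7 and 8. For Id3 the leading genes were Cherp (0.49), Rhno1 (0.47), Porcn (0.45), Enox1 (0.45) and Ampd2 (0.44). They held less well in N2B27 cells alone, where Rhno1 was at 0.53 and Porcn at 0.17. The cells share plates and samples, and most Id1 values were 0. Members that did not pass the filter for comparison, Id1 among them, could not be listed. No member that passed it was among these genes.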

How the data were processed

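The authors aligned the reads to GRCm38/mm10 with GSNAP (Trim Galore 0.4.4 is also named in the submitters' processing notes), counted them per gene with HTSeq on an Ensembl annotation, and deposited raw read counts per gene and cell. Smart-seq2 has no molecular identifiers, so intervals cover counting error only. Of all counts 27.6% lay on rows that name no gene, spike-ins included, and were left out. Cells beyond 3 median absolute deviations of their plate in counts, genes or mitochondrial share were dropped (scater 1.30.1), which kept 75 of 96. Counts were divided by median-ratio size factors (DESeq2 1.42.0, 1227 genes counted in every kept cell), and phases were called with cyclone (scran 1.30.0, R 4.3.3). Means were compared as log2 ratios (pseudocount 1), called past 2-fold at a log2 ratio of at least 1 in size and a higher mean of at least 20. The script recovered all 200 genes changed in simulated counts. Those genes had means above the minimum of 20, changes larger than 2-fold and no added zeros. The check therefore does not cover members with no count in most cells. Python 3.11.15, numpy 2.4.6, scipy 1.17.1 and pandas 2.3.3 were used.

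Positions and exon lengths came from GENCODE M21 on the same build. Counting was not stated to use strand: exons on the opposite strand shared 4.57% of the exon bases of Bmpr1a (Gm17110), 3.96% of Bmp4 (Gm15217) and 2.13% and 4.44% of Id4 (A330033J07Rik and Gm49291), where reads cannot be told apart. The members and lists were chosen with earlier results of these data known. The lists were ligands, receptors and co-receptors, receptor-regulated and common SMADs, intracellular and extracellular inhibitors, targets, bHLH partners of Id proteins and SMAD cofactors. Genes named were the 9 members, per comparison the 5 other pathway genes with the largest ratio among those with a mean of at least 20 that were detected in 50% or more of the cells on the higher side, and the 5 genes most correlated with Id1 and with Id3. Doublets were not called in sorted single cells.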

Additional observations from a re-analysis of the deposited data

Results flagged for a closer look

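Skil, the corepressor gene, had opposite ratios between the media in the gates: its log2 ratio of N2B27 to 2i was -1.07 in ungated cells (16.2 against 34.9 normalized counts) and 1.19 in small cells (78.5 against 33.8). Sp1 did so too, with -2.13 in ungated cells (9.37 against 44.3) and 3.05 in small cells (80.0 against 8.77). With spike-in scaling both were lower in N2B27 in both gates (Skil -1.02 and -1.18, Sp1 -2.10 and -2.16, ungated first). Each group was 1 sample, so the differences between the gates were not tested.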

How the results depend on the processing

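Each group was 1 sample and few cells set the means: the highest cell held 35.4% of the Id1 counts and 43.9% of the Bmp4 counts in N2B27 ungated. With cells called S only, 4 called ratios reversed, to 3.95 for Id1 between the gates in N2B27, -0.67 for Bmpr1a between the gates in 2i, -2.76 for Bmp4 between the media in ungated cells and 0.68 for Bmpr1a between the media in small cells, from 5 small and 7 ungated cells in 2i and 11 small and 4 ungated cells in N2B27. No other called ratio reversed under any alternative run. The number of members past 2-fold between the gates in 2i, 1 in the report, was 2 with scran size factors, with pooled counts and without the top cell of each side, 3 without a filter on cells, with poscounts, with means of log2 values and without a minimum mean, and 4 with spike-in scaling and with cells called S only. Between the gates in N2B27 the number of members was 3, 4 with scaling to total counts, scran and poscounts, where Smad1 was higher, and 5 with pooled counts and with means of log2 values. The shares of all genes higher and lower were 16.85% and 17.8%, 20.1% and 16.7%, 28.8% and 14.2%, 17.1% and 17.1%, and 4.60% and 40.3% in the same order. Between the media in small cells the number of members was 2, and 1 with fixed limits on cells, 4 with spike-in scaling, with pooled counts and without a minimum mean, and 6 with cells called S only. The shares of all genes higher and lower were 18.6% and 27.1%, 2.23% and 74.4%, 23.6% and 15.8%, 8.89% and 6.91%, and 30.9% and 16.4% in the same order. The number of pathway genes past 2-fold between the gates in 2i was 15, and 8 with fixed limits on cells and 26 without a minimum mean. For all genes the shares higher and lower were 25.4% and 24.2%, and 5.54% and 12.1%, in these 2 settings. Between the media the number of pathway genes was 12 in ungated cells, and 19 without a minimum mean and 22 with cells called S only, and 22 in small cells, and 12 with fixed limits on cells, 10 with means of log2 values and 11 without the top cell of each side. The shares of all genes higher and lower were 4.84% and 7.01%, and 15.8% and 31.5%, in ungated cells. In small cells they were 18.6% and 27.1%, 12.9% and 22.4%, and 27.8% and 10.8%, in the same order. Means of log2 values gave smaller ratios, with Id1 at 2.62 and Bmp4 at 0.46 between the media in ungated cells, Id1 at -2.40, Bmp4 at -1.58 and Smad5 at -1.28 between the gates in N2B27, and Smad5 at -2.08 between the media in small cells. Thinning each cell to 1500000 counts, with shallower cells left out, gave Bmpr1a ratios of 1.76 between the gates in 2i and -2.26 between the media in small cells. The causes were not tested, except that a minimum mean or a cell limit changes which genes or cells enter. Of the called ratios, Id2 in ungated cells kept its direction and stayed past 2-fold in all 13 alternatives. No paired analysis was possible because the groups carry no replicate numbers. With the count threshold raised from 1 to 10, chosen after seeing the data, 9 of the 36 shares of cells fell outside the exact interval of the share with any count.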
